A study of Saccharomyces cerevisiae with 12 samples.

Results

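The transcripts described here are 200 of the 6144 spots of a budding yeast array. Among spots with a moderate change during 240 min with Congo Red, they had the lowest synthesis rate relative to mRNA abundance before the cells met the dye. Moderate means that their average changes, set against the median spot, were not among those left out as extreme. They were chosen by measured values from the table that the authors deposited for the series, in which each spot has 1 mRNA abundance and 1 synthesis rate at each of 6 times. All 12 values were present for 4468 spots, and 3574 of these had a mean mRNA abundance above the 20th percentile. For each spot the log2 change from 0 min was taken less the median spot, as the mean over 120, 180 and 240 min for mRNA abundance and for synthesis rate, and as the mean over 30 and 60 min for mRNA abundance. Leaving out the 300 highest and the 300 lowest spots by either late change, and the 300 highest by the early mRNA change, removed 1017 spots. Of the 2557 moderate responders that were left, the 200 with the lowest ratio of synthesis rate to mRNA abundance at 0 min are the members. Nothing in the files ties a spot to a gene, and 0 spot identifiers matched the 6477 genes of the RefSeq table, so the transcripts have no names here and the label could not be checked against known stable mRNAs.

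The level of an mRNA is set by how fast it is made and how fast it is broken down. In a steady state both are in balance, so that the ratio of synthesis rate to abundance equals the rate constant of loss, and a low ratio goes with a long-lived message. In yeast, mRNAs are degraded mainly after their poly(A) tail is shortened and their cap removed, and the lifetimes of different messages differ widely. A long-lived mRNA follows a change in its synthesis slowly, because the existing pool has to decay or be diluted by growth first. The dye Congo Red attaches to wall chitin and disturbs the building of the cell wall, and yeast answers wall damage mainly through the cell wall integrity pathway, a MAP kinase cascade.

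All samples were wild-type cells of BY4741, a laboratory strain of Saccharomyces cerevisiae, grown in rich glucose medium. The groups are cells before the dye (0 min) and cells exposed to 30 µg/ml Congo Red for 30, 60, 120, 180 and 240 min. Each of the 2 assays, radiolabelled oligo-dT-primed cDNA for mRNA abundance and genomic run-on for nascent transcription, has 3 arrays at each time, which makes 36 arrays. No group without the dye after 0 min is in the series, so the dye and the time in culture cannot be told apart. Total intensity per array lay between 387129 and 1880504, 14.9% to 18.2% of spots had a listed intensity of 0, and 198 of the 200 members were above 0 on all 36 arrays. The synthesis rate of the table is the nascent rate normalised to cell volume, per the series' design text. No label or header states whether values are per length of transcript or per labelled base, so every level below is on the authors' scale, and the part of transcript length in the ratio was not tested.

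At 0 min the median abundance of the members was high among all spots, while their median synthesis rate ranked nearer to the middle. Their ratio of synthesis rate to abundance had a median of 0.00759, with quartiles of 0.00547 and 0.00900 and a lowest value of 0.000576. The median of all 2557 moderate responders was 0.0409, which is 5.40-fold higher. These values chose the members and carry no test. The last member had a ratio of 0.010631 and the first spot outside one of 0.010632, so the border falls within a continuous range.

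The median mRNA abundance of the members at 0 min was 13.5 on the authors' scale, at the 93.2 percentile of the 4468 spots, and the range ran from 0.706 to 496. The median synthesis rate was 0.114, at the 63.7 percentile, with a range from 0.0029 to 2.27. Of the 200 members, 123 lay in the top 10% of mRNA abundance and 11 in its lower 50%, whereas 111 had a synthesis rate above the median spot and 89 one below it. The low ratio thus came with a wide and continuous range of synthesis. At 1 end, 56 members were in the top 10% of synthesis as well, and at the other, 34 were in its bottom 10%, with the others in between. The 200 moderate responders with the highest ratios, the fast end of the same pool, had a median ratio of 0.168, with their abundance at the 32.9 percentile and their synthesis at the 77.8 percentile.

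**Figure D1:**
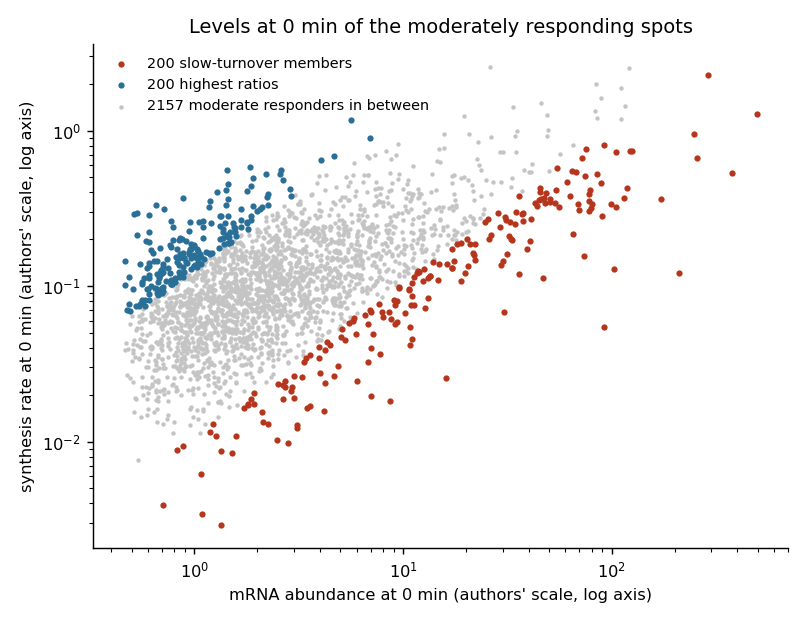
Synthesis rate at 0 min (vertical, log axis) against mRNA abundance at 0 min (horizontal, log axis), both on the authors' scale, with 1 point per spot. The 200 members run along the lower right edge of the 2557 moderate responders, from an abundance of 0.706 to 496, and the 200 spots with the highest ratios along the upper left edge.

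Together the members, 200 of the 4468 spots, carried a larger share of the mRNA signal than of the synthesis. The 200 spots with the highest ratios held 0.939% of the summed mRNA abundance at 0 min and 7.11% of the summed synthesis rate. The members held 29.95% of the summed mRNA abundance of the 4468 spots at 0 min and 6.56% of the summed synthesis rate. At 30, 60, 120, 180 and 240 min their share of mRNA abundance was 29.95%, 31.9%, 30.3%, 30.3% and 28.7%, and their share of synthesis was 6.86%, 6.82%, 6.66%, 6.35% and 6.29%. Both shares stayed in a narrow range. The rule had left out the spots with the most extreme late changes, so this follows in part from the choice. A few bright spots also weigh heavily in such sums. At 0 min the brightest member alone had an abundance of 496.

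Other spots also had a ratio this low, and many of them responded too strongly to be kept. Among the 3574 spots past the abundance floor, 323 had a ratio at or below that of the last member, and 123 of these, or 38.1%, were left out. Over all 3574 spots 28.5% were left out. Of the 123 spots, 89 were among the 300 with the lowest late mRNA change and 7 among the 300 with the highest. By late synthesis 25 were among the 300 highest and 20 among the 300 lowest, and 7 were among the 300 highest by early mRNA change. A spot can be in more than 1 of these lists. A ratio picked for its low value at 0 min is high in abundance at that time by choice, and every change from 0 min uses the same value, so these counts describe the choice and are no test.

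The ratio could be followed at later times, which had no part in ranking the members. In the values the authors deposited, 167, 165, 162, 162 and 166 of the 200 members were again among the 200 lowest ratios of the 2557 spots at 30, 60, 120, 180 and 240 min. All 200 lay in the lower 20% of that pool at 30, 60, 120 and 180 min, and 199 did at 240 min. At all 5 later times 129 members were among the 200 lowest, and 9 members were there at none. The median ratio of the members was 0.00759, 0.00777, 0.00773, 0.00903, 0.00736 and 0.00807 at 0, 30, 60, 120, 180 and 240 min. The median of all 2557 moderate responders was 5.40, 5.18, 4.87, 4.82, 5.01 and 4.53 times as high at these times. The distance from the pool was smaller at every later time than at 0 min, and was still over 4-fold at 240 min. The members were picked for their low ratio at 0 min, so a smaller distance later follows in part from the choice. Late ratios share spots with the ratio at 0 min, and the rule had already bounded the late changes, so this is a description without a test.

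How well a member kept its place followed how far it lay from the border. Of the 50 members with the lowest ratios at 0 min, all 50 were among the 200 lowest at every later time. The next 50 had 43 such members, the third 50 had 30, and the 50 nearest to the border had 6. The 50 lowest were also the most abundant, with a median abundance of 43.6 against 6.73 in the 50 nearest to the border, and a median synthesis rate of 0.142 against 0.0664. A spot near the border needs only a small change to cross it, and abundance is the divisor of the ratio. These counts and levels therefore follow in part from the choice and are no test.

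Members at the ends of the set show what this looked like. The member with the lowest ratio had an mRNA abundance of 210.2, 179.9, 210.5, 98.6, 109.5 and 97.1 at 0, 30, 60, 120, 180 and 240 min. Its synthesis rate at these times was 0.121, 0.147, 0.0961, 0.0972, 0.0957 and 0.0617. Its ratio stayed between 0.000457 and 0.000986, and it had the lowest rank of the pool, 0.0391%, at 240 min. The member with the highest abundance at 0 min went through 496, 265, 559, 343, 331 and 314 in mRNA abundance and 1.28, 1.03, 0.805, 0.985, 0.693 and 0.588 in synthesis rate. The member with the lowest synthesis rate had only 0.0029 at 0 min and 0.0017 at 240 min, with an abundance of 1.33 and 0.842. The 1 member outside the lower 20% at 240 min was dim, with an abundance of 0.828 at 0 min and 0.339 at 240 min, and its ratio was 0.0106 and 0.0192 at these times.

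The single arrays placed the members in the same region with more scatter. The nascent log2 intensity less the mRNA log2 intensity was taken for arrays of the same number, after quantile normalisation, which gives 3 values at each time. Whether same-numbered arrays of the different assays came from the same culture is not given, so this pairing goes by number alone. At 0 min, between 139 and 141 of the 200 members were among the 200 lowest of the 2557 spots in such a pair, and 155 in the mean of the 3. The 3 pairs gave 128 to 142, 113 to 134, 126 to 135, 117 to 137 and 116 to 139 members at 30, 60, 120, 180 and 240 min. In every pair of arrays at every time at least 196 members lay in the lower 50%. Over all 18 pairs the median member minus the median of the pool lay between -2.38 and -1.87 on the log2 scale. The lower counts on the arrays already stood at 0 min, where the arrays and the table describe the same samples. The members were ranked by the 0 min values of those samples, so their low place on these arrays follows from the choice and is no test. The table and the mean of the arrays correlated between 0.985 and 0.992 on the log2 scale over the 4468 spots, a description across spots with no p.

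**Figure D2:**
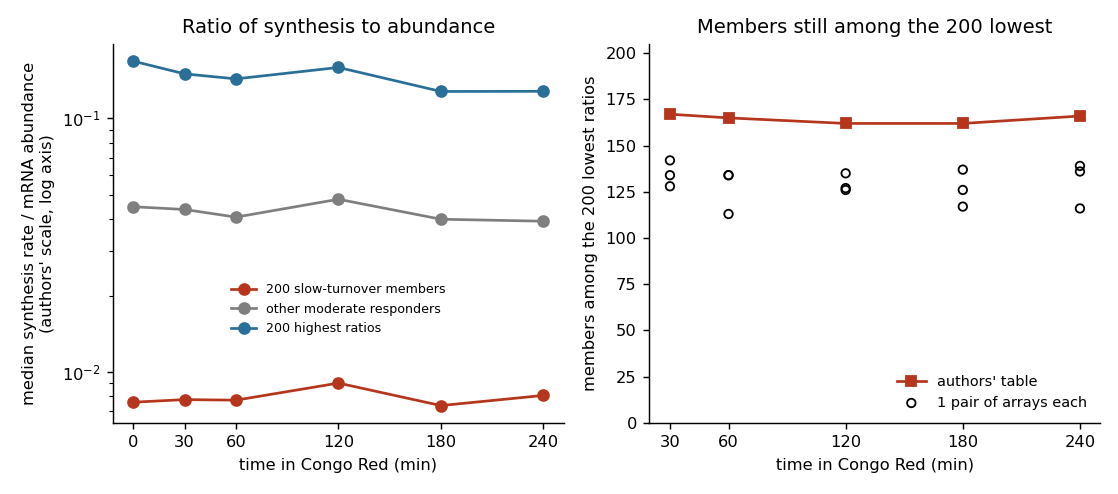
Left, the median ratio of synthesis rate to mRNA abundance (log axis, authors' scale) by minutes in Congo Red for the members, the other moderate responders and the 200 highest ratios, which are also part of the other responders. Right, how many of the 200 members were among the 200 lowest ratios, in the authors' table (squares, 162 to 167) and in each pair of same-numbered arrays (open circles, 113 to 142).

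On the authors' scale the mRNA and the synthesis of these transcripts were both lower late in the course than at 0 min. At 120 min mRNA abundance was further below its start than synthesis, and at 180 and 240 min the values of both were close. The median mRNA abundance of the members was 13.5, 13.1, 13.2, 8.73, 7.79 and 7.26 at 0, 30, 60, 120, 180 and 240 min, and their median synthesis rate was 0.114, 0.111, 0.103, 0.09415, 0.06905 and 0.06145. Relative to 0 min, the median member had an mRNA abundance of 0.989, 0.942, 0.653, 0.589 and 0.529 and a synthesis rate of 1.06, 0.996, 0.827, 0.602 and 0.589 at 30, 60, 120, 180 and 240 min. At 240 min 199 of 200 members were below 0 min in mRNA abundance and all 200 in synthesis. The 4468 spots behaved alike in direction, with medians of 0.647 for mRNA abundance and 0.571 for synthesis at 240 min. At 120 min their medians were 0.755 and 0.804, so mRNA abundance was further below its start over all spots too. At 240 min synthesis was the lower measure over all spots, while in the members mRNA abundance was. The ratio of synthesis to abundance of the median member was 1.08, 1.06, 1.26, 1.07 and 1.10 times its value at 0 min at the 5 later times. For the 200 highest ratios it was 0.888, 0.836, 0.949, 0.746 and 0.747. Replicates are already combined in these values of the authors, so they have no error, and they include 0 min values that chose the spots.

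Set against the median spot, the mRNA of the members lay a little lower at every later time and their synthesis did not. The median log2 change in mRNA abundance less the median spot was -0.06, -0.11, -0.19, -0.16 and -0.25 at 30, 60, 120, 180 and 240 min, with quartiles of -0.53 and -0.06 at 240 min. For synthesis rate it was 0.10, 0.08, 0.05, 0.02 and 0.05, with quartiles of -0.16 and 0.23 at 240 min. On the arrays without replicate 3 the synthesis values were -0.019, -0.027, -0.021 and -0.044 at 30, 60, 120 and 180 min, so their direction rested on that replicate, and at 240 min the value was -0.020 without replicate 1. Averaged over 120, 180 and 240 min, mRNA abundance was below the median spot for 163 of 200 members, which is 81.5%, and for 47.9% of the other 2357 moderate responders. Late synthesis was below the median spot for 84 members, which is 42.0%, and for 51.7% of the others. A late mRNA change below the median spot together with a late synthesis change above it was the most common pattern, with 86 members or 43.0%, against 17.3% of the others. Both changes were below in 77 members, both above in 30, and only 7 members had mRNA above with synthesis below, which is 3.50% against 21.0% of the others. For the 200 highest ratios the median late mRNA change was 0.22, on the other side of the median spot. All of these values enter the rule or share the 0 min values that it ranked, and they are given as a description.

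**Figure D3:**
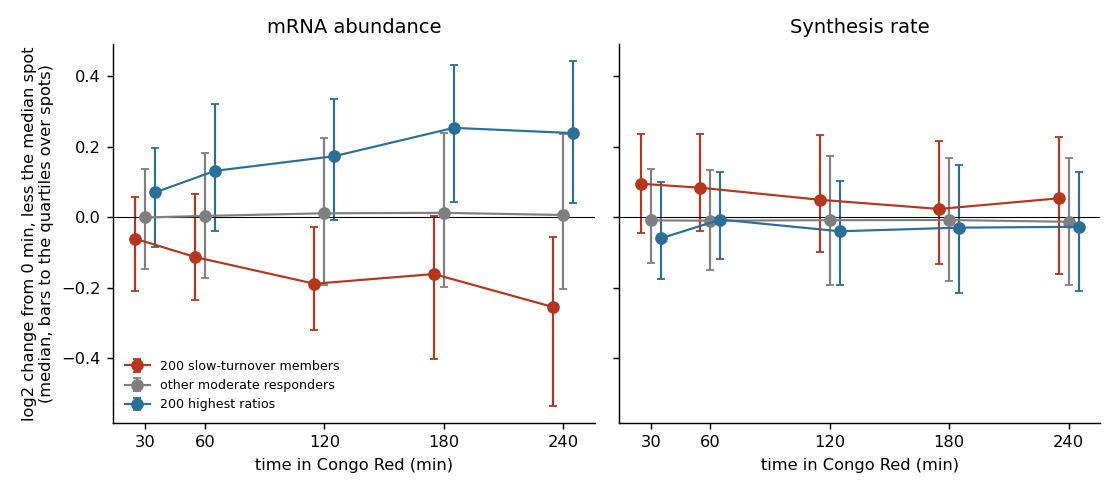
Log2 change from 0 min less the median spot in the authors' table, for mRNA abundance (left) and synthesis rate (right), by minutes in Congo Red. Points are medians over spots and bars reach to the quartiles. The members' median in mRNA abundance was -0.25 at 240 min and that of their synthesis rate 0.05, with quartiles that overlap those of the other moderate responders.

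The lower mRNA rested mainly on the arrays numbered 1. On the quantile normalised arrays, with each array set against the 0 min array of its number and the median spot subtracted, the members' median mRNA change at 240 min was -0.31, 0.03 and -0.05 in replicates 1, 2 and 3. At 180 min it was -0.27, -0.02 and -0.03, and at 120 min -0.28, -0.00 and 0.04. At 60 min it was -0.20, 0.03 and 0.08, and at 30 min -0.03, 0.01 and 0.10. All later changes of a replicate number share its single 0 min array, so they are not separate observations. The mean at 240 min was -0.11 ± 0.18 (SD, n = 3), so the shift was smaller than the spread between replicates. Without replicate 1 the median became -0.03 at 240 min and 0.02 at 120 min. With arrays scaled to a common median in place of quantile normalisation, an alternative chosen after seeing the data, the 3 replicates gave -0.63, -0.05 and -0.17 at 240 min, a mean of -0.28 ± 0.31 (SD, n = 3). All 3 replicates were then below 0 at 120, 180 and 240 min, and replicate 1 was again the lowest. The 200 highest ratios had mRNA changes of 0.37, 0.09 and -0.03 at 240 min on the quantile normalised arrays, so replicate 1 stood apart there too, on the other side.

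Nascent transcription of the members stayed near the median spot on the arrays. Changes were again set against the same-numbered 0 min array, although 14 of 45 same-numbered pairs had deviations correlated at or below 0.1. At 240 min the members' median was 0.05, -0.03 and -0.02 in replicates 1, 2 and 3, a mean of 0.00 ± 0.04 (SD, n = 3). At 30 min it was -0.04, -0.01 and 0.23, with a mean of 0.06 ± 0.15 (SD, n = 3), and replicate 3 was the highest. At 60 min replicate 3 was again the highest, with 0.17 against -0.11 and -0.04.

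**Figure D4:**
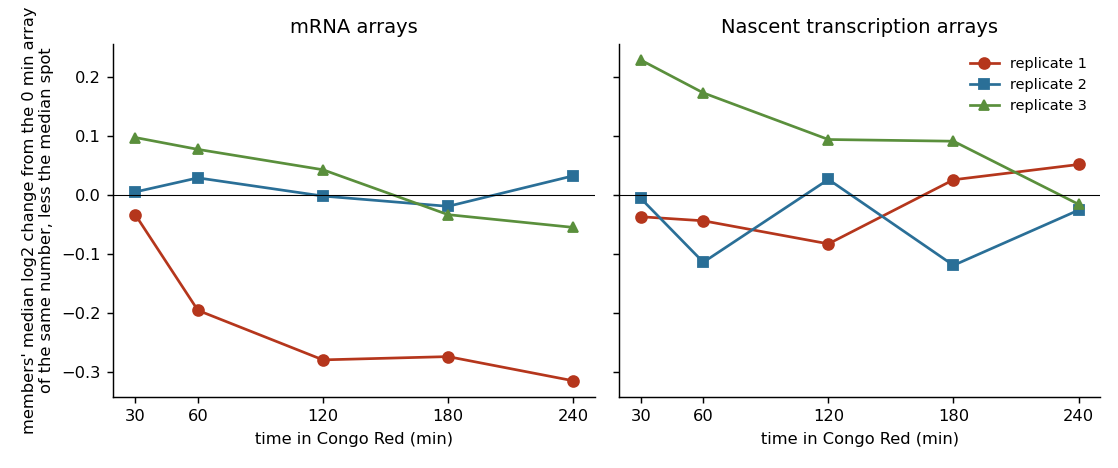
The members' median log2 change from the 0 min array of the same number, less the median spot, by minutes in Congo Red, on mRNA arrays (left) and nascent transcription arrays (right), with 1 line per replicate number. On the mRNA arrays replicate 1 is at -0.31 at 240 min while replicates 2 and 3 stay between -0.05 and 0.10 at all times.

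Tests spot by spot were made on the arrays with limma over all spots of an assay, with Benjamini-Hochberg adjustment and a threshold of 0.05. All 200 members passed the filter on spots listed at 0 in both assays. Changes from 0 min were used by the rule, which left the strongest responders out, so nothing is read from the members' counts there. For mRNA, 0 members were called at 120, 180 or 240 min, where 0.696%, 1.76% and 1.66% of all 4882 spots were, and 4, 7 and 17 members had an unadjusted p below 0.05, as had 439, 618 and 573 of all spots (8.99%, 12.7% and 11.7%). When the replicate number entered as a block, which the mRNA arrays bear out, 0 members were called at 120 min, 1 up and 11 down at 180 min, and 4 up and 18 down at 240 min, where 6.53%, 13.7% and 13.1% of all spots were. For nascent transcription 0 members were called at 120 and 240 min, where 0.919% and 0.802% of all 5113 spots were, and 7 and 5 members had an unadjusted p below 0.05, as had 771 and 647 of all spots (15.1% and 12.7%). With the block 1 member was up and 0 were down at each of these times, where 3.32% and 2.89% of all spots were called.

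Steps within the early and within the late times were not themselves used by the rule. It had however averaged mRNA over 30 and 60 min, and both measures over 120, 180 and 240 min, and left out the spots with extreme averages, so a low count of members in these steps follows in part from the choice. Nascent transcription at 30 and 60 min entered no average. Between 120 and 240 min 0 of the 200 members were called in mRNA (limma), where 0% of the 4882 spots were, and 2 members among 61 spots had an unadjusted p below 0.05. Adding the replicate block it was again 0 members and 0% of the spots. With the block, 24 of the 200 members, 4 up and 20 down, had an unadjusted p below 0.05, as had 261 of the 4882 spots. That is a larger share of the members than of all spots, and the difference was not tested. In nascent transcription 0 members were called over the same step and 1 of 5113 spots, or 0.0196%, with and without the block. An unadjusted p below 0.05 was found for 1 member among 84 spots (1.64% of all) without the block and 2 among 153 (2.99%) with it. Between 30 and 60 min 0 members were called in mRNA, where 0% of all spots were called with and without the block, and without and with it 0 and 3 members were among the 38 and 197 spots (0.778% and 4.04% of all) whose unadjusted p was below 0.05. For nascent transcription over that step 0 members were called without the block (0% of all spots) and 0 with it (0.0196%), with 2 and 9 members among 125 and 263 spots (2.44% and 5.14% of all) whose unadjusted p was below 0.05. The median spread of a member around its group means was 0.39 on the log2 scale on mRNA arrays, or 0.21 with the replicate block, and 0.35 on nascent arrays, or 0.28 with the block, and with 3 arrays a group small steps are not detectable, so the counts of 0 do not show that levels were equal.

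The sizes of these steps were small, and their direction depended on single arrays. From 120 to 240 min the members' median log2 change was -0.04 in mRNA and -0.06 in nascent transcription, against -0.01 and -0.02 over all spots tested. Leaving out 1 array at a time gave -0.13 (without replicate 1 at 120 min) to 0.09 (without replicate 1 at 240 min) in mRNA, and -0.17 (without replicate 1 at 240 min) to 0.07 (without replicate 3 at 240 min) in nascent transcription. From 30 to 60 min it was -0.05 and 0.01, against 0.01 in both over all spots. Here the values ran from -0.12 (without replicate 3 at 60 min) to 0.0087 (without replicate 1 at 60 min) in mRNA, and from -0.059 (without replicate 1 at 60 min) to 0.040 (without replicate 2 at 60 min) in nascent transcription. In the authors' table, less the median spot, the step from 120 to 240 min had a median of -0.07 in mRNA abundance, with 122 of 200 members below 0, and of -0.03 in synthesis, with 114 below 0. The 100 more abundant members had a median of -0.18 in mRNA abundance over that step and the 100 less abundant ones a median of -0.03. The difference between these groups was not tested.

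Over the step from 120 to 240 min in mRNA the members' changes ran from -0.60 to 0.52. The members with the highest and lowest moderated t, which weighs a change by its error and need not pick the largest, are named by their place on the array, and none passed the threshold. Spot R1 - C20 : 10 had the lowest moderated t. Its log2 intensity on the mRNA arrays was 11.97, 11.81 and 11.56 at 240 min, against 12.51, 12.34 and 12.04 at 120 min, and every array at 240 min lay below every array at 120 min. The change was -0.51 ± 0.17 (SE) (limma adjusted p = 1, unadjusted p = 0.0107, and adjusted p = 0.394 with the replicate block). Its mean was 11.88, 12.10, 11.84, 12.29, 11.85 and 11.78 over the 6 times, and the arrays at 30 and 120 min overlapped. In the table its mRNA abundance was 119, 129, 110, 101, 64.5 and 58.4 over the 6 times, and its synthesis rate 0.426, 0.541, 0.446, 0.344, 0.255 and 0.251.

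Spot R12 - C16 : 16 had 10.05, 10.12 and 9.85 on the mRNA arrays at 240 min, against 10.33, 10.63 and 10.36 at 120 min, again without overlap. The change was -0.44 ± 0.17 (SE) (limma adjusted p = 1, unadjusted p = 0.0239, and adjusted p = 0.575 with the block). Its nascent log2 intensity averaged 8.05 ± 0.16 at 240 min and 8.34 ± 0.30 at 120 min (SD, n = 3 each), a change of -0.29 ± 0.28 (SE) with overlapping arrays (limma adjusted p = 1). In the table its mRNA abundance at 240 min was 16.3, against 37.9 at 120 min.

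Spot R3 - C3 : 7 had the highest moderated t, with 10.77, 11.29 and 11.12 on the mRNA arrays at 240 min, against 10.82, 10.65 and 10.53 at 120 min. Replicate 1 was lower at 240 min than at 120 min while replicates 2 and 3 were higher, and the change was 0.39 ± 0.18 (SE) (limma adjusted p = 1, unadjusted p = 0.0509, and adjusted p = 0.92 with the block). With arrays scaled to a common median the change was 0.17. On the authors' scale its mRNA abundance was 35.1 at 120 min and 33.6 at 240 min, so it did not rise there. Less the median spot, that step was 0.18 on the log2 scale. Spot R7 - C21 : 4 had 7.52, 7.91 and 7.86 at 240 min, against 7.15, 7.54 and 7.55 at 120 min, with overlapping arrays and a change of 0.35 ± 0.21 (SE) (limma adjusted p = 1, unadjusted p = 0.121, and adjusted p = 0.92 with the block). All 3 same-numbered pairs were higher at 240 min for this spot, and the change was 0.22 without replicate 1 at 120 min. On the authors' scale its mRNA abundance was 4.02 at 120 min and 4.26 at 240 min. In nascent transcription the step was -0.04 ± 0.25 (SE) for R3 - C3 : 7 and 0.10 ± 0.31 (SE) for R7 - C21 : 4 (limma adjusted p = 1 for both).

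**Figure D5:**
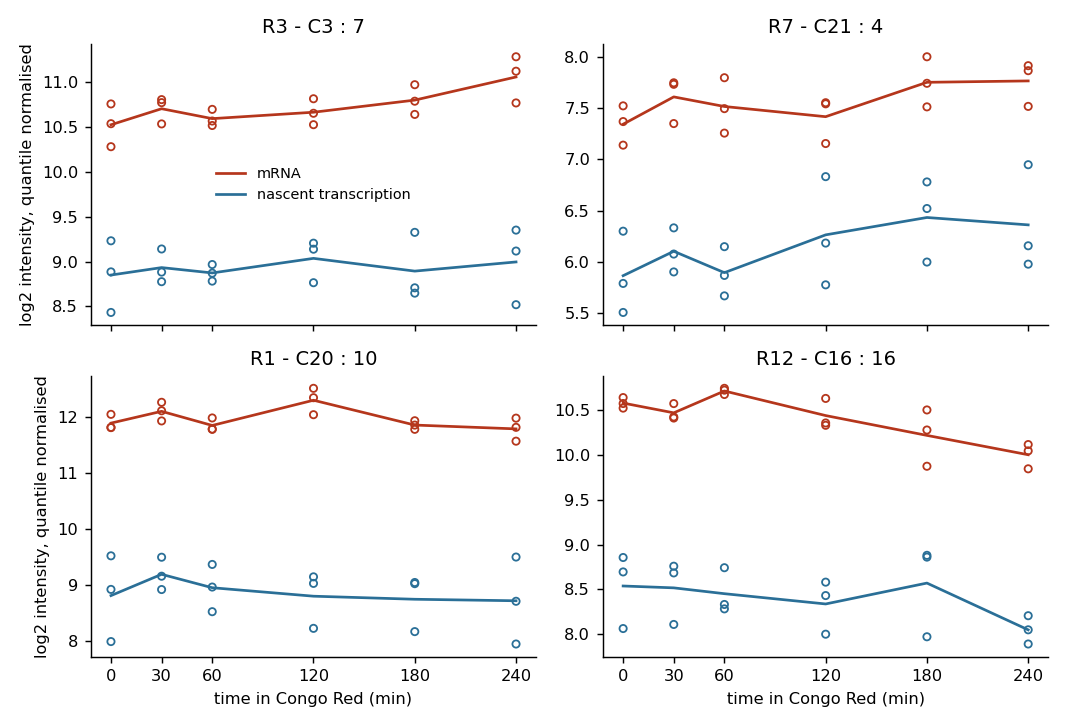
Quantile normalised log2 intensity by minutes in Congo Red for the 4 named members, on mRNA arrays (red) and nascent transcription arrays (blue). Circles are single arrays, 3 at each time, and lines join the means. The upper spots are those with the highest and the lower spots those with the lowest moderated t for mRNA at 240 against 120 min.

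The members were not spread evenly over the array. Each block of the array has 16 printing positions, and the members made up from 1.30% of the moderate responders at position 3, which is 1 of 77 spots, to 17.5% at position 11, which is 24 of 137. Position 13 held the most members, 34 of 229 spots, and had the lowest median ratio of all positions, 0.0188, against 0.0790 at position 8, where 4 of 221 spots were members. When the log2 ratio was centred on the median of each position, 149 of the 200 members were still among the 200 lowest at 0 min, and between 141 and 145 at the 5 later times. Rows 1 to 8 of the array held 63.0% of the members and 49.3% of the moderate responders. Whether genes of a kind were printed together is not given in the sources used here, so printing and biology cannot be told apart in these shares.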

How the data were processed

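Radiolabelled cDNA gave mRNA abundance and genomic run-on gave nascent transcription, both on spotted arrays, per the labels' protocols. The deposited array files hold 1 intensity per spot with no background or flag. The table the authors deposited holds 1 signal per spot, measure and time with replicates combined, and all 12 columns were used. For image software, background treatment and the table's scaling, nothing is stated in the labels or headers. Members and lists were chosen with earlier results of these data known.

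An intensity of 0 counted as missing, the log2 of all others was used, and nothing was added before it. Spots above 0 on at least 2 of 3 arrays of every group were quantile normalised within an assay and fitted with limma 3.58.1 in R 4.3.3, with time as a factor over 18 arrays and Benjamini-Hochberg adjustment over all spots. The fit was tested on simulated data with no replicate effect and with shifts much larger than the members' median steps. That test therefore does not show whether small steps can be detected. Tables and plots used Python 3.11.15, numpy 2.4.6, pandas 2.3.3 and matplotlib 3.10.9. Separate cultures are not named for the replicates, so the p-values reflect array-to-array spread that could be purely technical. No pair among 630 pairs of arrays was identical (0 pairs). Replicate numbers come from the numbering of the array files. Over 45 pairs of same-numbered mRNA arrays, deviations from group means correlated between 0.620 and 0.841, so the numbers pair the mRNA arrays. On nascent arrays 14 of 45 were at or below 0.1. The rule for named spots, with no gene names, took the 2 highest and 2 lowest moderated t for mRNA at 240 against 120 min among members above 0 on all arrays. Gene lists and strain markers were not run, since no spot has a gene. The number of arrays limits the precision. Alternatives were another normalisation, filter, block, set of members and each replicate left out.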

Additional observations from a re-analysis of the deposited data

How the results depend on the processing

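The count of 0 members called between 120 and 240 min and between 30 and 60 min stayed 0 in both assays under all 13 alternatives, the replicate block and leaving out single arrays (0 to 0) included. With and without the block, 0% to 0.0196% of all spots were called in these steps. A count of 0 is near that share and shows nothing particular to the members. On the arrays no named spot changed direction, but R3 - C3 : 7 moved to 0.17 under median scaling of arrays and R7 - C21 : 4 to 0.22 without 120 min replicate 1. The members' median step from 120 to 240 min in mRNA was 0.0048, and that from 30 to 60 min in nascent transcription -0.019, with printing positions centred. The share of members among the 200 lowest ratios was lower on the arrays than in the table, at 74.5%, 73.5%, 73.0%, 71.5% and 76.0% at 30, 60, 120, 180 and 240 min, and the cause was not tested. Without single replicates it was 71.5 to 73.5%, 70.0 to 72.0%, 67.5 to 74.5%, 66.0 to 70.5% and 71.5 to 71.5%. With the 300 lowest ratios as members, counted among the 300 lowest at the later time, the share was 88.0% at 30 min and 85.0% at 120 min. This window is wider than that of the 200 members, so the shares are not directly comparable. An abundance floor at the 40th percentile gave 85.0% at 120 min. The members' median mRNA change without single replicates ran from -0.034 to 0.045, -0.093 to 0.076, -0.11 to 0.024 and -0.16 to -0.027 at 30, 60, 120 and 240 min, the upper ends at all 4 times being without replicate 1. The median change in synthesis at 240 min was 0.0016 with the 100 lowest ratios and -0.020 to 0.043 without single replicates. Synthesis at 30, 60, 120 and 180 min ran from -0.019 to 0.16, -0.027 to 0.13, -0.021 to 0.14 and -0.044 to 0.10 without single replicates, below 0 only without replicate 3. The alternatives not given here moved these values by less than 1 SD between replicates. Array number and signal over background, which the files do not give, limit small changes.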
